A study of Mus musculus with 32 samples.

Results

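The mRNAs of the 4 kinases that phosphorylate the translation factor eIF2 (Eif2ak1, Eif2ak2, Eif2ak3 and Eif2ak4) and of the 2 regulatory subunits of the phosphatase that removes the phosphate (Ppp1r15a and Ppp1r15b) were followed through ER stress. They were taken by gene symbol from the deposited count table and make up 6 of its 20234 genes. All 6 passed the filter on low counts, with 248 counts (Eif2ak2, control polysome RNA) as the lowest value of any of them in any library. The cells were mouse embryonic fibroblasts (MEFs), and the stress was thapsigargin (Tg), a drug that blocks calcium uptake into the endoplasmic reticulum (ER). Cells of the control group got no thapsigargin, and cells of the other groups got it for 1 h or for 16 h, the latter either alone or with a PERK inhibitor added for the last 4 h (the inhibitor group). Each of the 4 samples of a group gave 2 libraries, cytosolic RNA and polysome RNA, the latter from gradient fractions with more than 4 ribosomes per mRNA. All groups share the growth medium and the confluence at treatment. The doses, the name of the inhibitor, any solvent given to the control, and the strain, line or clone of the fibroblasts were not given in the sources used here. No cells with inhibitor but without thapsigargin were analysed here.

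Phosphorylated eIF2 blocks its own exchange factor, eIF2B, so that fewer initiator tRNAs reach ribosomes and bulk protein synthesis slows, while a small group of mRNAs with upstream open reading frames is translated better. Each kinase answers a different signal: HRI (Eif2ak1) heme shortage and mitochondrial or oxidative stress, PKR (Eif2ak2) double-stranded RNA, PERK (Eif2ak3) unfolded proteins in the ER, and GCN2 (Eif2ak4) uncharged tRNA and stalled ribosomes. GADD34 (Ppp1r15a) is the stress-induced and CReP (Ppp1r15b) the constitutive subunit that brings protein phosphatase 1 (PP1) to eIF2, so the kinases and these subunits together set how long the block lasts.

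All 6 genes are protein coding in the GENCODE annotation of GRCm38, the assembly also called mm10. Eif2ak1 lies at chr5:143817788-143904251 on the plus strand, Eif2ak3 at chr6:70844515-70905245 (plus) and Eif2ak4 at chr2:118388618-118475234 (plus). Eif2ak2 lies at chr17:78852564-78882573 on the minus strand. Ppp1r15a lies at chr7:45522916-45526268 (minus) and Ppp1r15b at chr1:133131143-133139783 (plus). Eif2ak4 is the longest kinase, with 4944 coding nucleotides, and Eif2ak2 the shortest with 1545; Eif2ak1 has 1857, Eif2ak3 3342, Ppp1r15a 1971 and Ppp1r15b 2091. In the 5′ leader of the annotated transcript, Ppp1r15a and Ppp1r15b each hold 3 upstream ATGs whose reading frames all end within the leader. Eif2ak3 also holds 3, of which 1 frame ends in the leader and 2 run into the coding sequence. Eif2ak2 holds 1, which runs into the coding sequence, and Eif2ak1 and Eif2ak4 hold none. All of the genes but Eif2ak4 share exon bases with genes on the other strand. These are Aimp2 and Ankrd61 for Eif2ak1, n-R5s29 and Gm26637 for Eif2ak2, and Gm43292 for Eif2ak3. For Ppp1r15a it is Tulp2 and for Ppp1r15b Gm26616. Levels were looked up only for Aimp2, Tulp2 and Ankrd61, the last with its highest group mean, 0.9975 CPM, in control cytosolic RNA.

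RefSeq promoters of GRCm38.p6 (250 bases before to 50 after the start, 32851 in all) were at hand for 5 of the 6 genes. The 3 windows below cover the last 100 bases before and the first 30 after the start of Ppp1r15a (the largest rise), Eif2ak2 (the largest TE rise at 16 h) and Eif2ak3 (the kinase that senses ER stress), where TE, translational efficiency, is the polysome level of an mRNA relative to its cytosolic level. Capitals mark the motif matches named after them.

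Ppp1r15a: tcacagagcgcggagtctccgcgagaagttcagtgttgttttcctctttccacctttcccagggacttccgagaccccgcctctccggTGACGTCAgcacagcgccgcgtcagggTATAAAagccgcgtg

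Eif2ak2: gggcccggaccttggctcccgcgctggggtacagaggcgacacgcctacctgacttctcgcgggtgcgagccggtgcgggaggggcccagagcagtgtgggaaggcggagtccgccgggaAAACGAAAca

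Eif2ak3: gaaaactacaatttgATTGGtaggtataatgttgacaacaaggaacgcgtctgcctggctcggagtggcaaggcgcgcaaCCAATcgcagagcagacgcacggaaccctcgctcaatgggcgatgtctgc

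The windows are chr7:45526239-45526368 (minus), chr17:78882543-78882672 (minus) and chr6:70844415-70844544 (plus). Motifs were searched on both strands of the whole 300 bases. The Ppp1r15a promoter holds the cyclic AMP response element TGACGTCA, found in 1.79% of all promoters, 12 bases before the annotated start, and TATAAA, found in 13.6%, from base 16 after it. Near its end the Eif2ak2 window holds a match to AANNGAAA, the core bound by interferon regulatory factors, from base 21 after the start. That core is common, with a match in 23.9% of promoters, and it also matches at other places in the promoters of Eif2ak1, Eif2ak3 and Ppp1r15a. The Eif2ak3 promoter holds CCAAT, present in 37.4% of promoters, 6 times over both strands, and 2 of these matches fall in the window shown. The shorter element TGACGT (7.51% of promoters) overlaps the full one in Ppp1r15a and is also in the second of the promoters listed for Eif2ak4. Neither TGATGNAA (3.97%) nor the ER stress response element ERSE (0.119%) matched in any of the 5 genes. These matches are letters in a window; factor binding was not measured.

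Libraries held 19.32 to 41.78 M counts, with the lowest totals in the 1 h group. Of 11 fibroblast markers, 9 were at 10 CPM (counts scaled to library size) or more in every group, while Lum and Dcn were near 0. Their summed level was 7703 to 10510 CPM in control libraries, 17190 to 20710 at 1 h, 4042 to 4701 at 16 h and 3867 to 4419 in the inhibitor group, so it moved with the groups, and its part in the results was not tested. Markers of epithelial, blood, endothelial and muscle cells summed to at most 6.49 CPM in any cytosolic library. Neural markers summed to 22.28 to 50.23 CPM, nearly all of it from Map2 and Tubb3. Fewer cells of a type and less RNA per cell cannot be told apart in such bulk samples.

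Changes were tested with edgeR's quasi-likelihood test and Benjamini-Hochberg adjustment over all genes tested, and a gene was called when its adjusted p was under 0.05. TE was tested with both libraries of a sample joined. Most of the genes tested (12366 in cytosolic RNA, 12065 in polysome RNA and 12561 for TE) were called in most comparisons, so counts of these 6 have to be read beside the share of tested genes called. In cytosolic RNA, 5 of the 6 genes were called at 1 h against control (56.2% of all genes tested), 5 at 16 h against control (77.3%), 6 at 16 h against 1 h (75.3%), 5 in the inhibitor group against 16 h (74.7%) and 4 in the inhibitor group against control (73.3%). In polysome RNA the counts in the same order were 6 (79.5% of all genes tested), 5 (85.1%), 6 (78.5%), 5 (82.8%) and 5 (77.1%). In TE they were 5 (67.8%), 4 (64.2%), 4 (28.1%), 4 (60.1%) and 4 (43.4%). Of the 90 tests on these genes 73 were called, and in 69 of the 73 the values of the compared groups did not overlap. How often groups were separate over all genes tested was not counted, so the 69 cannot be read as particular to these 6. The counts of called genes are close to the background in most comparisons, and the sizes and directions differ from gene to gene. The comparisons share samples: control enters 3 of them, 16 h 3, 1 h 2 and the inhibitor group 2.

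**Figure D1:**
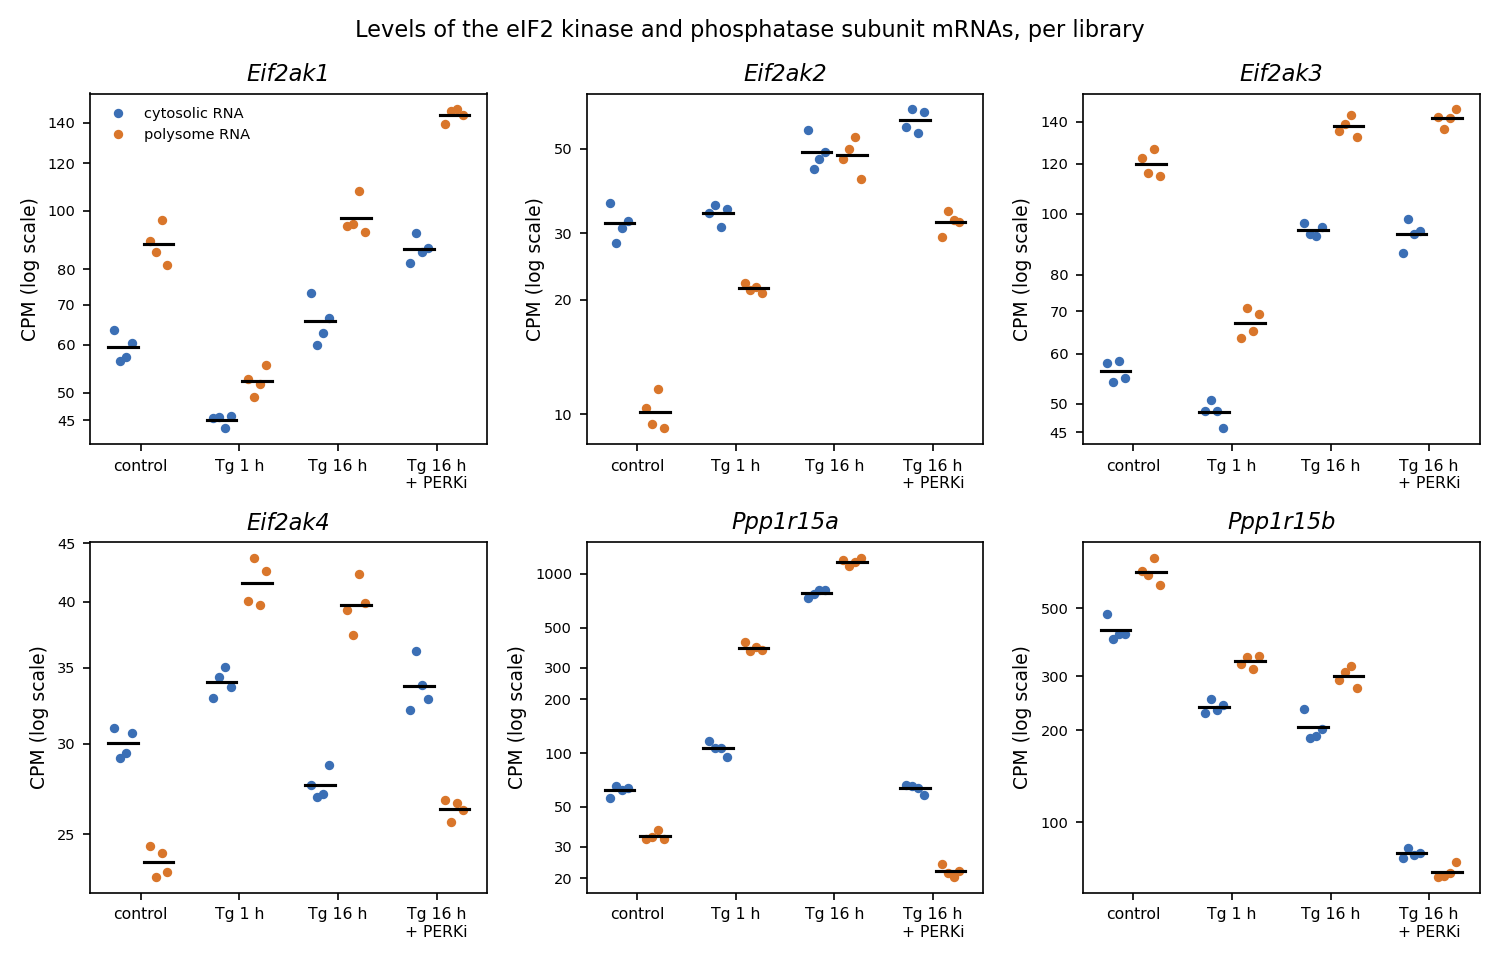
Level of each mRNA in CPM (log axis, a different range in each panel) in the 4 groups, with 1 point per library and a black line at the mean of 4; blue is cytosolic and orange polysome RNA. Ppp1r15a was highest at 16 h, with mean 784.5 CPM in cytosolic and 1173 in polysome RNA, and Ppp1r15b was lowest in the inhibitor group, with 79.3 and 69.0 CPM.

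In unstressed cells the constitutive phosphatase subunit was the most abundant of the 6 mRNAs per length. Ppp1r15b stood at 75.95 ± 6.66 CPM per kb of transcript (SD, n = 4) in control cytosolic RNA, and Ppp1r15a at 26.5 ± 1.72. Among the kinases Eif2ak1 stood at 13.75 ± 0.76, Eif2ak3 at 12.5 ± 0.48, Eif2ak2 at 7.40 ± 0.75 and Eif2ak4 at 5.77 ± 0.17 CPM per kb. The order on control polysomes was different, with Eif2ak3 first of the kinases at 26.6 ± 1.23 CPM per kb and Eif2ak2 last at 2.36 ± 0.26. Eif2ak2 thus had the lowest mean log2 ratio of polysome to cytosolic CPM of the 6 in control cells, -1.65 ± 0.19 (SD, n = 4). Eif2ak3 had the highest, 1.09 ± 0.02. The polysome fractions were those with more than 4 ribosomes per mRNA. Coding length differs between the genes (1545 nucleotides in Eif2ak2, 3342 in Eif2ak3), and its part in this order was not tested.

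Eif2ak3 encodes PERK, the kinase that senses this stress and the target of the inhibitor. Its cytosolic level was 58.0, 54.1, 58.3 and 54.9 CPM in the 4 control libraries, 48.7, 50.7, 48.7 and 45.7 at 1 h, 96.7, 93.0, 92.2 and 95.2 at 16 h, and 86.6, 98.2, 92.9 and 93.9 in the inhibitor group. The 1 h libraries all lay below the control libraries and both 16 h groups lay above them without overlap, while the groups with and without inhibitor overlapped. Cytosolic Eif2ak3 fell 1.17-fold at 1 h (log2 change -0.23 ± 0.05 SE) and rose 1.54-fold at 16 h against control (0.62 ± 0.04). With the inhibitor the log2 change against 16 h was 0.032 ± 0.04 and did not pass the test (edgeR's quasi-likelihood test, Benjamini-Hochberg adjusted p = 0.53), with the inhibitor group still 1.57-fold above control.

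On polysomes Eif2ak3 ran from 114.8 to 126.4 CPM in control libraries, 63.4 to 70.8 at 1 h, 132.3 to 143.6 at 16 h, and 136.1 to 146.3 in the inhibitor group. The 1 h libraries were all far below the others, and the control libraries just below both 16 h groups. Polysome Eif2ak3 fell 1.72-fold at 1 h and rose 1.09-fold at 16 h against control. The rise of 1.09-fold was small (log2 change 0.12 ± 0.05) and was no longer called without control replicate 2 (0.11) or without control replicate 4 (0.11). TE of Eif2ak3 fell by 0.62 ± 0.07 on the log2 scale at 1 h and by 0.55 ± 0.07 at 16 h, and stayed 0.48 ± 0.07 below control with the inhibitor. The log2 ratio of polysome to cytosolic RNA lay between 1.07 and 1.12 in the control samples and between 0.38 and 0.72 in the other 12, so control stood apart from all stressed samples. TE did not pass the test for 16 h against 1 h (0.074 ± 0.07) or for the inhibitor group against 16 h (0.065 ± 0.07). When polysome RNA was instead modelled with the cytosolic level as a covariate, the changes from control were 0.16 ± 0.26 at 16 h and 0.21 ± 0.25 in the inhibitor group, with the sign turned and not called, and that of 16 h against 1 h was 0.99 ± 0.34 and called.

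Eif2ak2 encodes PKR, a kinase that interferon is known to induce. On control polysomes it stood at 10.4, 9.42, 11.6 and 9.18 CPM. It stood at 22.1, 21.2, 21.7 and 20.8 CPM on polysomes at 1 h, 47.1, 49.9, 53.6 and 41.6 at 16 h, and 29.3, 34.3, 32.5 and 32.1 in the inhibitor group. No 2 groups overlapped, and the order was control, 1 h, inhibitor group, 16 h. Polysome Eif2ak2 rose 2.19-fold at 1 h (log2 change 1.13 ± 0.08) and 4.49-fold at 16 h (2.17 ± 0.08) against control, and fell 1.47-fold with the inhibitor (-0.55 ± 0.07).

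The cytosolic level of Eif2ak2 moved less, and differently. It was 36.1, 28.3, 31.0 and 32.3 CPM in control libraries, 33.9, 35.6, 31.2 and 34.8 at 1 h, 56.1, 44.3, 46.9 and 49.1 at 16 h, and 57.3, 63.5, 55.0 and 62.4 in the inhibitor group. Control overlapped with 1 h, and 16 h overlapped with the inhibitor group. The cytosolic change at 1 h was 0.075 ± 0.08 on the log2 scale and not called (edgeR's quasi-likelihood test, Benjamini-Hochberg adjusted p = 0.423). Cytosolic Eif2ak2 rose 1.41-fold at 16 h against control (0.50 ± 0.08). With the inhibitor it rose a further 1.26-fold over 16 h (0.33 ± 0.07, or 0.20 ± 0.07 when only those 2 groups entered the fit), while the polysome level fell.

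TE of Eif2ak2 therefore changed in every comparison. It rose by 0.99 ± 0.12 at 1 h and by 1.62 ± 0.12 at 16 h against control on the log2 scale, by 0.62 ± 0.11 from 1 h to 16 h, and fell by 0.86 ± 0.11 with the inhibitor. The inhibitor group remained 0.76 ± 0.12 above control. In single samples the log2 ratio of polysome to cytosolic RNA was -1.79, -1.59, -1.42 and -1.82 in control, -0.62, -0.75, -0.52 and -0.74 at 1 h, -0.25, 0.17, 0.19 and -0.24 at 16 h, and -0.97, -0.89, -0.76 and -0.96 with the inhibitor. The 4 groups were separate, with 16 h the most spread. With the cytosolic level as a covariate the change from 1 h to 16 h was 1.15 ± 0.18 and that of the inhibitor group from control 1.65 ± 0.28.

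Eif2ak4 encodes GCN2, the longest mRNA coding sequence of the 6 and the lowest kinase per length in control cytosolic RNA. Its cytosolic level ran from 29.2 to 31.0 CPM in control libraries, 33.0 to 35.1 at 1 h, 27.0 to 28.8 at 16 h and 32.1 to 36.2 in the inhibitor group. The groups at 1 h and with the inhibitor overlapped, and the other groups were separate. Cytosolic Eif2ak4 rose 1.12-fold at 1 h, fell 1.18-fold at 16 h against control, and rose 1.27-fold with the inhibitor (log2 change 0.34 ± 0.05, or 0.21 ± 0.05 when only the 2 groups compared entered the fit).

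On polysomes Eif2ak4 ran from 22.9 to 24.4 CPM in control libraries, 39.7 to 43.7 at 1 h, 37.4 to 42.3 at 16 h and 25.6 to 26.8 with the inhibitor. Both groups without inhibitor were far above control and overlapped each other, and the inhibitor group was just above control. Polysome Eif2ak4 rose 1.82-fold at 1 h and 1.60-fold at 16 h against control and fell 1.48-fold with the inhibitor. From 1 h to 16 h it fell by 0.19 ± 0.05 on the log2 scale, or by 0.12 ± 0.06 with DESeq2 size factors. The inhibitor group against control was not called in cytosolic RNA (log2 change 0.10 ± 0.05; edgeR's quasi-likelihood test, Benjamini-Hochberg adjusted p = 0.06) or in polysome RNA (0.11 ± 0.05, adjusted p = 0.054), although neither pair of groups overlapped. The cytosolic change was called without inhibitor replicate 1 (0.12) or 4 (0.12). The polysome change was called without control replicate 1 (0.13) or 3 (0.13) and in a fit of the 2 groups alone (0.15).

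TE of Eif2ak4 rose by 0.63 ± 0.07 at 1 h and by 0.87 ± 0.07 at 16 h against control on the log2 scale, and fell by 0.88 ± 0.07 with the inhibitor, which left no called change from control (-0.011 ± 0.07). The log2 ratio lay between -0.40 and -0.29 in control samples, 0.18 and 0.35 at 1 h, 0.47 and 0.64 at 16 h, and -0.50 and -0.26 with the inhibitor. Control and inhibitor samples overlapped and lay apart from the others. The rise from 1 h to 16 h was 0.24 ± 0.07. It was no longer called without 1 h replicate 3 (0.20), without 16 h replicate 3 (0.20), or with the cytosolic level as a covariate (-0.085 ± 0.12). Long coding sequences shifted the same way in these libraries. The 632 genes whose coding length was 0.8 to 1.25 times that of Eif2ak4 had a median TE change of 1.00 at 1 h, 0.92 at 16 h and -0.90 with the inhibitor against 16 h. With library offsets corrected for coding length, TE of Eif2ak4 changed by -0.29 ± 0.07 at 1 h (now called as lower), 0.0005 ± 0.07 at 16 h and -0.055 ± 0.07 with the inhibitor, the last 2 not called.

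Eif2ak1 encodes HRI. Its cytosolic level was 63.6, 56.4, 57.4 and 60.5 CPM in control libraries, 45.5, 45.6, 43.7 and 45.8 at 1 h, 73.1, 60.1, 62.9 and 66.5 at 16 h, and 81.9, 91.9, 85.4 and 86.7 in the inhibitor group. The 1 h libraries were all below control, 16 h overlapped with control, and the inhibitor group was above all others. Cytosolic Eif2ak1 fell 1.33-fold at 1 h (log2 change -0.41 ± 0.06) and rose 1.37-fold with the inhibitor against 16 h (0.45 ± 0.05), to 1.39-fold above control. At 16 h against control the change was 0.021 ± 0.05 and not called (edgeR's quasi-likelihood test, Benjamini-Hochberg adjusted p = 0.733).

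Polysome Eif2ak1 moved in the same directions, from 81.3 to 96.5 CPM in control libraries to 49.3 to 55.6 at 1 h, 92.4 to 108.0 at 16 h and 139.5 to 147.2 with the inhibitor. It fell 1.62-fold at 1 h and rose 1.51-fold with the inhibitor against 16 h. The change at 16 h against control, 0.071 ± 0.05 on the log2 scale, was not called, but was called without control replicate 3 (0.12). TE of Eif2ak1 fell by 0.36 ± 0.09 at 1 h and was not called against control at 16 h (0.0046 ± 0.09), a rise of 0.36 ± 0.09 from 1 h. With the cytosolic level as a covariate these 2 changes were -0.81 ± 0.14 and 0.97 ± 0.18. With the inhibitor TE changed by 0.17 ± 0.09 against 16 h and by 0.17 ± 0.09 against control, neither called. The first was called without 16 h replicate 3 (0.25), with offsets corrected for coding length (0.48 ± 0.09) and with the cytosolic covariate (0.62 ± 0.14). The second was called under those same corrections (0.30 ± 0.09 and 0.79 ± 0.18), with DESeq2 size factors (0.25 ± 0.09), with the DESeq2 Wald test (0.25 ± 0.10) and without control replicate 3 (0.24). Exons of Eif2ak1 overlap those of Aimp2 on the other strand, which stood at 41.7 to 62.5 CPM (group means) in cytosolic RNA and 72.0 to 167.0 in polysome RNA. The strand setting of the counting was not given in the sources used here, and reads of the overlap cannot be told apart.

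**Figure D2:**
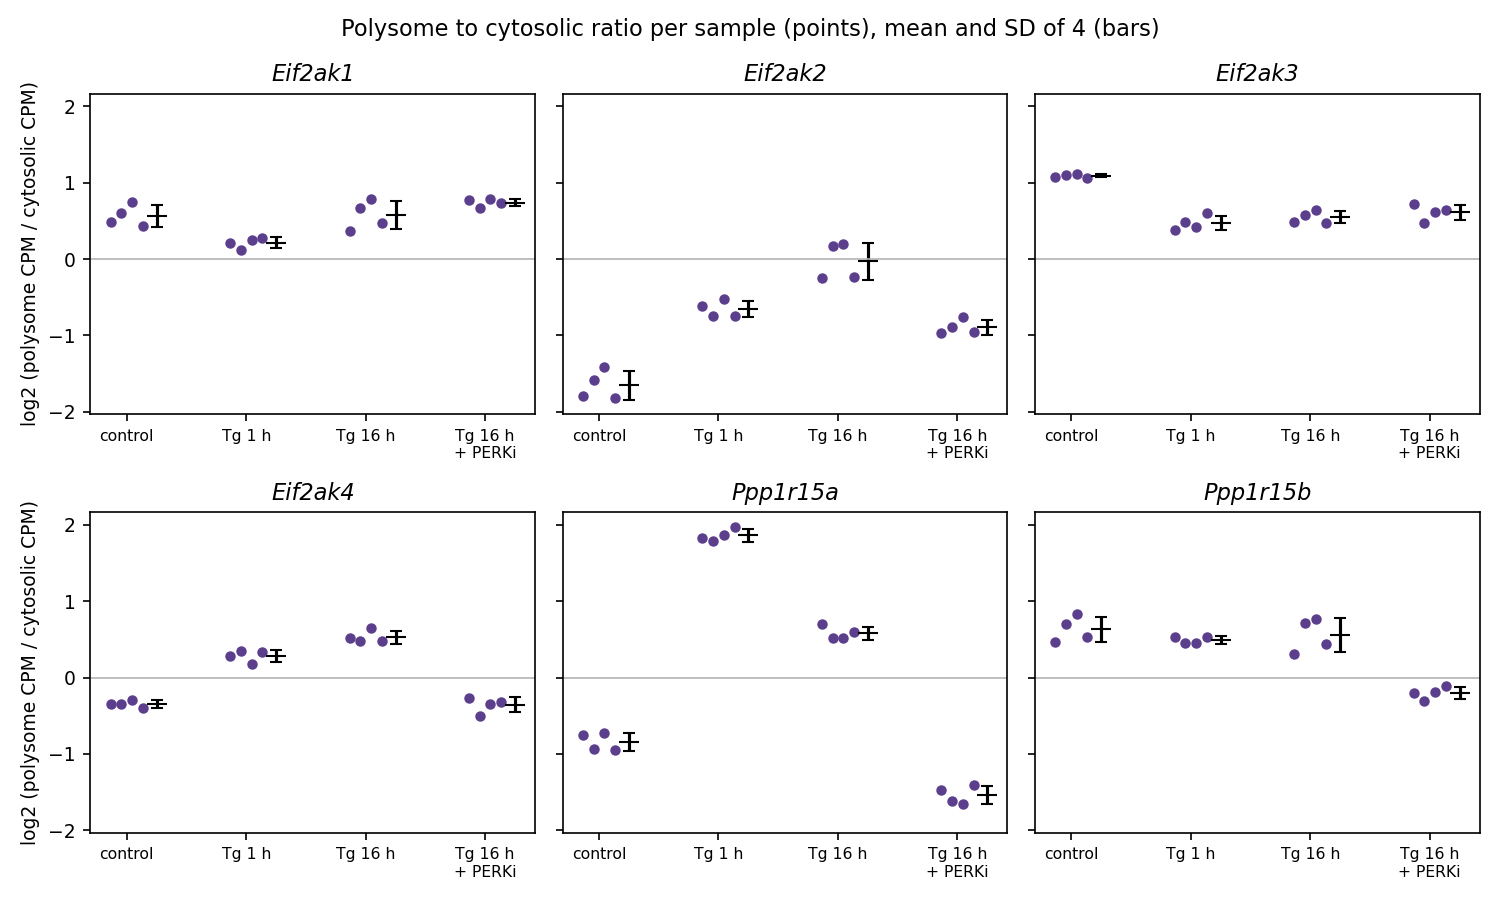
Log2 ratio of polysome to cytosolic CPM in each sample (purple points) with the mean and SD of 4 (black), by group; the same axis is used for all 6 genes and the grey line marks an equal level in both kinds of RNA. Ppp1r15a spans the widest range, from -1.65 in the inhibitor group to 1.98 at 1 h, and Eif2ak3 is the gene whose control samples alone stand above all others.

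As a share of the summed kinase mRNA, per length, the pool changed in different ways in the cytosol and on polysomes. These shares are a description, with no test. On polysomes Eif2ak2 made up 4.36 ± 0.23% (SD, n = 4) of the kinase pool in control, 12.5 ± 0.64% at 1 h, 15.5 ± 0.92% at 16 h and 9.62 ± 0.57% with the inhibitor. Eif2ak4 made up 8.44 ± 0.31% in control polysome RNA and 19.9 ± 0.56% at 1 h, its highest share, then 10.6 ± 0.51% at 16 h and 6.54 ± 0.17% with the inhibitor. Dividing by transcript length does not remove the TE shift with coding length described above, and Eif2ak4 has the longest coding sequence. Eif2ak3 made up 49.4 ± 0.60% of the polysome pool in control and 37.3 ± 1.18% at 1 h, 42.5 ± 0.92% at 16 h and 40.7 ± 1.14% with the inhibitor. The share of Eif2ak1 was 37.8 ± 0.71%, 30.3 ± 1.42%, 31.4 ± 0.66% and 43.2 ± 0.73% in the same order. In cytosolic RNA Eif2ak3 had its highest share at 16 h, 39.7 ± 1.41%, against 31.7 ± 1.17% in control. PERK mRNA was thus the largest part of the polysome pool in control, 1 h and 16 h, and HRI mRNA in the inhibitor group.

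**Figure D3:**
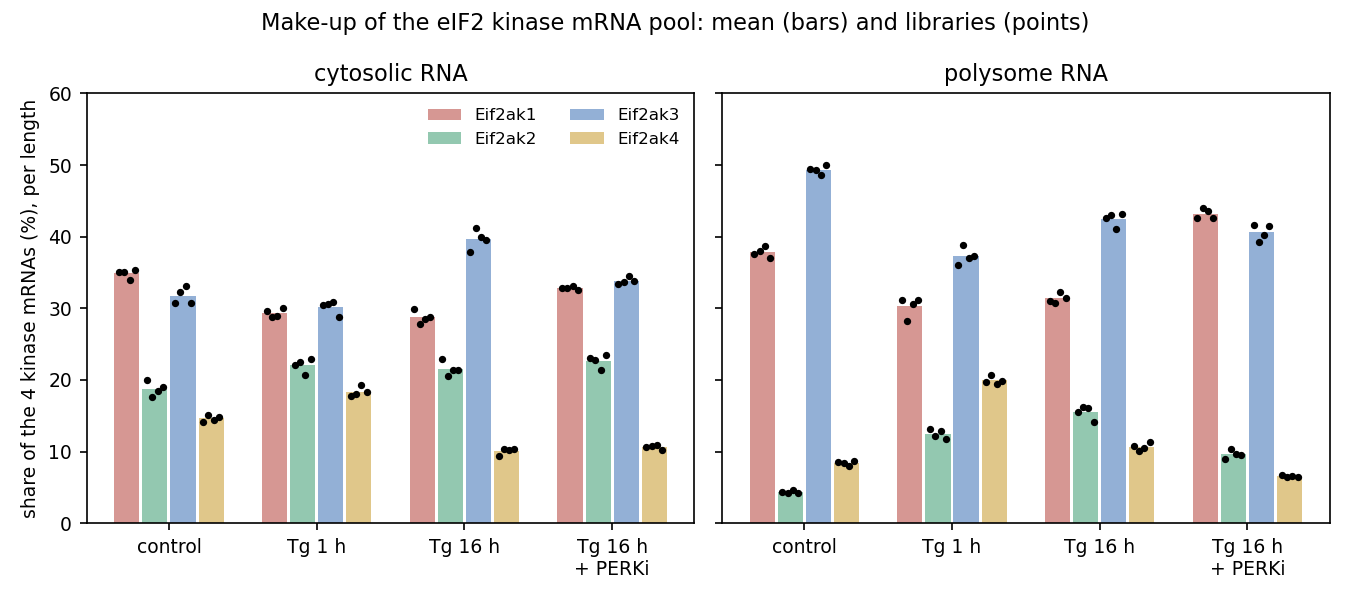
Share of each kinase in the sum of the 4 kinase mRNAs, in percent after division by transcript length, for cytosolic (left) and polysome RNA (right); bars are means of 4 libraries and points single libraries. On polysomes Eif2ak2 goes from a mean of 4.36% in control to 15.5% at 16 h.

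Ppp1r15a encodes GADD34, the subunit induced downstream of ATF4, and had the widest range of levels of the 6 genes. Its cytosolic level was 56.1, 65.1, 61.9 and 63.9 CPM in control libraries, 117.5, 107.3, 107.3 and 95.1 at 1 h, 736.9, 773.4, 812.4 and 815.5 at 16 h, and 66.1, 65.9, 64.0 and 58.3 in the inhibitor group. Control and inhibitor libraries overlapped, and both other groups stood above them. Cytosolic Ppp1r15a rose 1.71-fold at 1 h (log2 change 0.78 ± 0.07) and 11.7-fold at 16 h (3.54 ± 0.08) against control, and fell 11.9-fold with the inhibitor (-3.57 ± 0.08). Against control the inhibitor group changed by -0.028 ± 0.07, which was not called (edgeR's quasi-likelihood test, Benjamini-Hochberg adjusted p = 0.728).

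On polysomes the early rise of Ppp1r15a was larger. The level was 33.2, 34.1, 37.4 and 33.1 CPM in control libraries, 416.7, 369.3, 392.2 and 374.2 at 1 h, 1195, 1104, 1164 and 1229 at 16 h, and 23.9, 21.5, 20.4 and 22.0 with the inhibitor. No groups overlapped, and the inhibitor libraries lay below control. Polysome Ppp1r15a rose 11.7-fold at 1 h (3.55 ± 0.06) and 32.4-fold at 16 h (5.02 ± 0.07) against control and fell 52.4-fold with the inhibitor (-5.71 ± 0.07), ending 1.62-fold below control (-0.70 ± 0.06).

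TE of Ppp1r15a rose 6.52-fold at 1 h (log2 change 2.71 ± 0.08) and 2.68-fold at 16 h (1.42 ± 0.08) against control, so that it fell 2.43-fold between 1 h and 16 h (-1.28 ± 0.07). With the inhibitor it fell 4.33-fold against 16 h (-2.12 ± 0.08) and lay 1.62-fold below control (-0.69 ± 0.08). The log2 ratios were -0.76, -0.93, -0.73 and -0.95 in control samples, 1.83, 1.78, 1.87 and 1.98 at 1 h, 0.70, 0.51, 0.52 and 0.59 at 16 h, and -1.47, -1.61, -1.65 and -1.41 with the inhibitor. All 4 groups were separate, with 1 h on top and the inhibitor group at the bottom. Atf4, the transcription factor whose mRNA is the classic readout of eIF2 phosphorylation, rose in TE by 2.56 ± 0.05 at 1 h and 2.47 ± 0.05 at 16 h, and the change between these times was not called (-0.10 ± 0.05). With the cytosolic level as a covariate, the fall of Ppp1r15a from 1 h to 16 h turned to 0.74 ± 0.73 and was not called. The change at 16 h was then 3.99 ± 0.93 and that with the inhibitor -4.65 ± 0.92. The slope on the covariate is estimated within groups of 4, over a range far narrower than the step between groups, and these SEs are much wider than those without it (0.07 to 0.08). Exons of Ppp1r15a overlap those of Tulp2 on the other strand, which had means under 0.1 CPM in every group.

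Ppp1r15b encodes CReP, the constitutive subunit, and fell in every treated group. Its cytosolic level was 479.6, 396.0, 412.0 and 412.0 CPM in control libraries, 227.8, 253.7, 232.6 and 241.7 at 1 h, 235.5, 188.9, 190.9 and 202.6 at 16 h, and 76.5, 82.7, 78.5 and 79.7 in the inhibitor group. Control was above and the inhibitor group below all other libraries, and 1 h and 16 h overlapped. Cytosolic Ppp1r15b fell 1.79-fold at 1 h (log2 change -0.84 ± 0.06), 2.26-fold at 16 h (-1.18 ± 0.07) and 5.61-fold in the inhibitor group (-2.49 ± 0.07) against control. The step from 16 h to the inhibitor group was a fall of 2.48-fold (-1.31 ± 0.07), and the step from 1 h to 16 h one of 1.26-fold (-0.33 ± 0.06). Ppp1r15a, its stress-induced counterpart, fell with the inhibitor as well, but only to its control level in cytosolic RNA.

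On polysomes Ppp1r15b stood at 663.9, 644.6, 730.9 and 595.2 CPM in control libraries, 329.3, 347.4, 317.6 and 349.1 at 1 h, 292.1, 310.7, 325.4 and 275.2 at 16 h, and 66.4, 67.1, 68.6 and 74.1 with the inhibitor. The groups stood in the same order as in the cytosol, again with 1 h and 16 h overlapping. Polysome Ppp1r15b fell 1.89-fold at 1 h, 2.31-fold at 16 h and 9.83-fold in the inhibitor group (-3.30 ± 0.06) against control. TE of Ppp1r15b changed by -0.14 ± 0.10 at 1 h and -0.073 ± 0.10 at 16 h, neither called (edgeR's quasi-likelihood test, Benjamini-Hochberg adjusted p = 0.202 and 0.529). It fell 1.70-fold with the inhibitor against 16 h (-0.76 ± 0.10) and lay 0.83 ± 0.10 below control on the log2 scale. The log2 ratio lay between 0.31 and 0.83 in the 12 samples without inhibitor and between -0.30 and -0.10 in the inhibitor group. Both earlier changes were called with offsets corrected for coding length (-0.37 ± 0.10 at 1 h and -0.36 ± 0.10 at 16 h) and with the cytosolic level as a covariate (-1.01 ± 0.24 and -1.19 ± 0.30). The change with the inhibitor against 16 h was then -0.36 ± 0.10 and -2.20 ± 0.38, and that against control -0.73 ± 0.10 and -3.38 ± 0.67.

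The 2 phosphatase subunit mRNAs changed their order during the stress. Within a library the ratio of their counts does not depend on library scaling, and it is given as a description. There were 6.93 ± 1.10 Ppp1r15b counts for each Ppp1r15a count in control cytosolic RNA (SD, n = 4) and 19.1 ± 0.86 in control polysome RNA. The ratio of Ppp1r15a to Ppp1r15b counts was 0.448 ± 0.05 in cytosolic RNA and 1.16 ± 0.11 in polysome RNA at 1 h, and 3.88 ± 0.51 and 3.92 ± 0.44 at 16 h. All 4 polysome libraries at 1 h were above 1, between 1.06 and 1.27, and all 4 cytosolic ones below it, between 0.394 and 0.516. With the inhibitor the ratio was 0.802 ± 0.05 in cytosolic and 0.319 ± 0.03 in polysome RNA. All of these libraries lay above the control values, which were 0.147 ± 0.02 and 0.0524 ± 0.0024, and Ppp1r15b was lower than in control. Per transcript length the cytosolic ratio was 0.352 ± 0.05 in control, 1.08 ± 0.13 at 1 h, 9.29 ± 1.22 at 16 h and 1.92 ± 0.13 with the inhibitor.

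**Figure D4:**
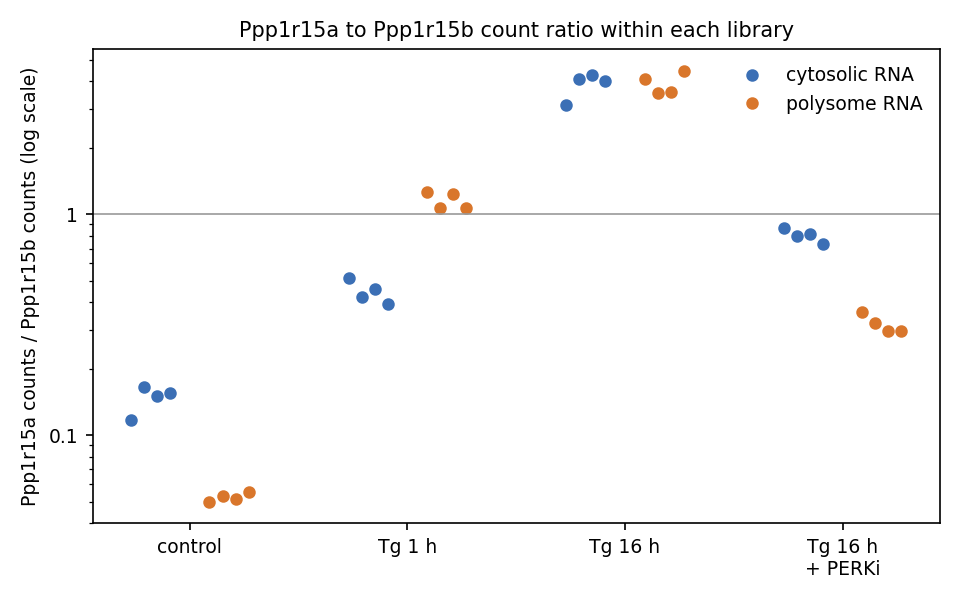
Ratio of Ppp1r15a to Ppp1r15b counts within each library (log axis) by group, blue for cytosolic and orange for polysome RNA, with a grey line at equal counts. The ratio crosses that line at 1 h in polysome RNA (1.06 to 1.27) and lies between 3.13 and 4.47 in all 8 libraries at 16 h.

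Beside genes of like coding length the TE changes of Ppp1r15a and Eif2ak2 lay above the upper quartile, and that of Eif2ak3 below the lower one, at both times against control. Genes with 0.8 to 1.25 times the coding length of Ppp1r15a (2705 genes) had a median log2 TE change of 0.10 at 1 h and 0.17 at 16 h, and those like Eif2ak2 (3203 genes) of -0.16 and -0.08. Genes like Eif2ak3 (1381 genes) had medians of 0.58 at 1 h and 0.59 at 16 h, where Eif2ak3 itself fell. With offsets corrected for coding length TE of Eif2ak3 fell by 1.21 ± 0.07 at 1 h and 1.16 ± 0.07 at 16 h, and its change with the inhibitor against 16 h, 0.71 ± 0.07, was called. Under the same correction Eif2ak2 rose by 1.05 ± 0.12 at 1 h and 1.62 ± 0.12 at 16 h, and Ppp1r15a by 2.52 ± 0.08 and 1.18 ± 0.08.

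**Figure D5:**
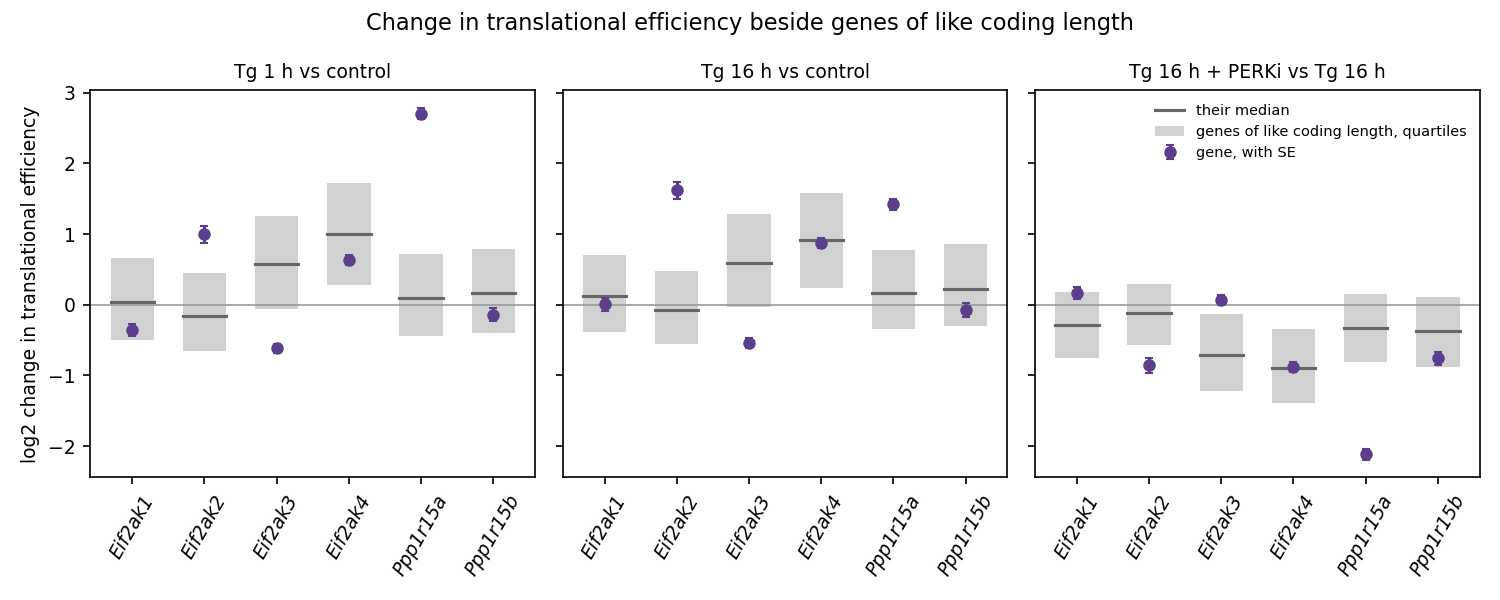
Log2 change in translational efficiency of the 6 genes (purple, with SE) beside the quartile range (grey bars) and median (dark line) of genes with 0.8 to 1.25 times their coding length, for 3 comparisons. Eif2ak4 lies within its grey bar in all 3 panels, Eif2ak2 and Ppp1r15a lie above theirs at 1 h and 16 h, and Eif2ak3 lies below its bar there.

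The substrate of the kinases is eIF2, and eIF2B is its exchange factor. Of 9 listed eIF2 and eIF2B subunits 8 were tested, and all 8 rose in cytosolic RNA at 16 h against control and fell with the inhibitor. Their median log2 change was 0.63 (all genes -0.012) and -0.32 (all genes 0.10), and 77.3% and 74.7% of all genes tested were called in these comparisons. Of the 12366 tested, 4683 were called higher at 16 h and 4016 lower with the inhibitor. Eif2s1, the phosphorylated alpha subunit, rose by 0.76 ± 0.08 at 16 h and fell by 0.83 ± 0.08 with the inhibitor, and Eif2b3, an eIF2B subunit, rose by 1.57 ± 0.07 and fell by 1.91 ± 0.07. TE went the other way: 7 of 8 fell and none rose at 1 h (median -0.77, all genes -0.005), 6 fell and none rose at 16 h (median -0.51, all genes -0.037), and with the inhibitor 6 rose and none fell (median 0.40, all genes -0.092). Of all genes tested 67.8%, 64.2% and 60.1% were called there. Of the 12561 tested, 4318 were called lower at 1 h, 4151 lower at 16 h and 3317 higher with the inhibitor. Eif2b1 fell in TE by 1.00 ± 0.07 at 1 h. TE changes of genes in this and the following lists are given without correction for coding length, along which TE shifted in these libraries.

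The catalytic partner of both Ppp1r15 proteins is PP1. Of 8 tested PP1 subunits and regulators, 1 rose and 5 fell in TE at 1 h (median -0.45, all genes -0.005), 2 rose and 6 fell at 16 h (median -0.43, all genes -0.037), and 7 rose and 1 fell with the inhibitor against 16 h (median 0.56, all genes -0.092), beside 67.8%, 64.2% and 60.1% of all genes tested. Ppp1ca, the catalytic alpha subunit, fell in TE by 1.26 ± 0.05 at 1 h and by 1.16 ± 0.05 at 16 h and rose by 1.07 ± 0.05 with the inhibitor, the opposite of Ppp1r15a. The part of coding length in this contrast was not tested. Its cytosolic level rose by 0.11 ± 0.04 at 1 h and fell by 0.66 ± 0.04 at 16 h. Ppp1r10, a nuclear PP1 regulator, rose in TE by 1.21 ± 0.09 at 1 h.

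Among 16 genes for activators, inhibitors and partners of the kinases, 11 rose and 2 fell in cytosolic RNA at 1 h (median 0.37, all genes 0.003) and 10 rose and 3 fell at 16 h (median 0.55, all genes -0.012). With the inhibitor 4 rose and 9 fell against 16 h (median -0.23, all genes 0.10). The shares of all genes tested that were called were 56.2%, 77.3% and 74.7%. Hspa5, the ER chaperone BiP that holds PERK inactive, rose by 1.61 ± 0.06 at 1 h and 4.06 ± 0.07 at 16 h and fell by 1.30 ± 0.06 with the inhibitor, to 2.76 ± 0.06 above control. Dnajc3, an ER co-chaperone described as an inhibitor of PKR and PERK, fell by 0.54 ± 0.07 at 1 h and rose by 2.01 ± 0.07 at 16 h, and it fell by only 0.26 ± 0.07 with the inhibitor. Impact, a protein that competes for the GCN2 activator GCN1, rose by 0.61 ± 0.08 at 16 h and fell by 0.72 ± 0.08 with the inhibitor, but in TE its change with the inhibitor was 0.029 ± 0.11 and not called. Gcn1l1, the gene of GCN1, rose by 1.27 ± 0.19 at 1 h, and its cytosolic change at 16 h of 0.21 ± 0.18 was not called. Prkra, the gene of the PKR activator PACT, fell in TE by 1.99 ± 0.09 at 1 h and by 1.13 ± 0.09 at 16 h, while TE of Adar, whose product edits double-stranded RNA, rose by 1.54 ± 0.07 and 1.42 ± 0.07. Here too the part of coding length was not tested.

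Since Eif2ak2 belongs to the genes that interferon induces, 20 other such genes were set beside it. In cytosolic RNA 9 rose and 1 fell at 1 h (median 0.26, all genes 0.003), and 18 rose and 2 fell at 16 h (median 1.76, all genes -0.012), a larger median than the 0.50 of Eif2ak2. With the inhibitor 4 rose and 12 fell (median -0.46, all genes 0.10), where cytosolic Eif2ak2 rose. Of all genes tested 56.2%, 77.3% and 74.7% were called in these comparisons, so the 10 of 20 called at 1 h are no more than the background. In TE 9 rose and 6 fell at 1 h (median 0.38, all genes -0.005), 10 rose and 4 fell at 16 h (0.55, all genes -0.037), and 4 rose and 11 fell with the inhibitor (-0.58, all genes -0.092). With 67.8%, 64.2% and 60.1% of all genes tested called, these TE counts of 15, 14 and 15 of 20 are near the background. Stat2, a transcription factor of the interferon response, rose in TE by 1.80 ± 0.09 at 1 h and 1.97 ± 0.09 at 16 h and fell by 1.81 ± 0.08 with the inhibitor.

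Of 8 readouts of eIF2 phosphorylation, 7 rose and 1 fell in cytosolic RNA at 16 h (median 1.40, all genes -0.012), and 1 rose and 7 fell with the inhibitor (median -2.75, all genes 0.10), beside 77.3% and 74.7% of all genes tested. In TE 3 of them rose and 4 fell at 1 h (median -0.22, all genes -0.005). At 16 h 3 rose and 5 fell in TE (median -0.37, all genes -0.037). The 3 that rose were Atf4, Atf5 and Ddit3 at both times, by 2.56 ± 0.05, 2.28 ± 0.12 and 2.02 ± 0.11 at 1 h. With the inhibitor none rose in TE and 3 fell (median -0.16, all genes -0.092). In TE 67.8%, 64.2% and 60.1% of all genes tested were called at 1 h, at 16 h and with the inhibitor against 16 h. The 3 of 8 called with the inhibitor were thus a smaller share than that of all genes tested. In cytosolic RNA Ddit3, the gene of the transcription factor CHOP, rose by 5.02 ± 0.12 at 16 h. Its cytosolic level fell by 3.37 ± 0.10 with the inhibitor, to 1.65 ± 0.10 above control. Of 7 genes of the other ER stress sensors, 4 rose and 1 fell in cytosolic RNA at 16 h (median 0.30, all genes -0.012). With the inhibitor 1 rose and 5 fell in cytosolic RNA (median -0.31, all genes 0.10), beside the same 77.3% and 74.7% of all genes tested. Atf6, an ER-anchored transcription factor, rose by 1.65 ± 0.06 and fell by 1.67 ± 0.06, and Xbp1, the target of the sensor IRE1, rose by 1.08 ± 0.05 and fell by 0.93 ± 0.05, whereas Eif2ak3 rose at 16 h and was not called with the inhibitor.

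Across the 16 cytosolic libraries, the genes whose log2 CPM was most like that of each of the 6 were looked up among 9713 genes with a mean of at least 5 CPM. All these correlations use the same 16 libraries, which fall into 4 groups, and carry no test. Closest to Eif2ak3 were P4hb (Pearson r = 0.9955, n = 16 libraries), a protein disulfide isomerase of the ER, Slc35b1 (0.9954) and Atpaf2 (0.9948). Closest to Ppp1r15a were Ndrg1 (0.9948), Clint1 (0.9931) and Dnaja3 (0.9923). Ndrg1 stood at 43.7, 58.1, 279.8 and 43.3 CPM in control, 1 h, 16 h and inhibitor groups. Closest to Ppp1r15b were B3galt1 (0.993), Gpr39 (0.9917) and Lrrc17 (0.9891), and all 3 had their lowest mean in the inhibitor group. For Eif2ak1 they were Fbxw2 (0.9936), Aktip (0.9909) and Nf2 (0.9894), and for Eif2ak2 Stx12 (0.9953), Pms2 (0.9914) and Zfc3h1 (0.9913). The likeness was weakest for Eif2ak4, with Ncaph (0.9483), Qars (0.9476) and Abhd4 (0.9411). Among the 6 genes themselves Eif2ak1, Eif2ak2 and Eif2ak3 had r between 0.846 and 0.899 with each other, and Ppp1r15a and Ppp1r15b one of 0.036.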

How the data were processed

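Cytosolic and polysome RNA of 16 MEF samples, 4 per condition, gave 32 libraries. The table deposited by the authors gives raw read counts for gene symbols. The submitters' processing notes name HISAT, DESeq2 1.9.23 and the mm10 build. How reads were counted, with which strand setting and which annotation, was not given in the sources used here. Of its genes, 3234 were at 0 in all libraries. Depth ran from 19.32 to 41.78 M counts per library. Replicate pairs differed by more than sampling noise (chi-square per degree of freedom at least 2.32), so all 32 were kept as separate libraries.

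Tests used R 4.3.3 with edgeR 4.0.16 and, for 1 alternative, limma 3.58.1 (filterByExpr with minimum count 10 and minimum total 15, TMM factors, robust quasi-likelihood test, Benjamini-Hochberg adjustment over all genes tested, threshold 0.05). Separate fits over 16 libraries were made for the 12366 genes of cytosolic and the 12065 of polysome RNA, with the 4 conditions as groups. TE was the interaction of RNA kind and condition over 32 libraries (12561 genes), with each sample as a block, since the series design states that the RNA of every sample was divided. Errors of edgeR changes are SEs derived as the size of the log2 change divided by the square root of the quasi-likelihood F. Those of the DESeq2 Wald test and of the covariate fit are SEs from the fit. Levels are CPM with TMM factors over all 32 libraries and errors are SD over 4. Folds from the fits need not equal ratios of these levels. Nothing in the labels says that replicates were separate cultures, so p-values cover only the spread among these samples, possibly a technical one. Library scaling hides any loss of polysomes that all mRNAs share.

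The 6 genes, the gene lists and the rule for named genes (the 6, up to 3 called genes of a list by smallest p and up to 2 not called, Atf4, Hspa5, Dnajc3, Impact and Gcn1l1 throughout, and the 3 most alike genes of each of the 6) were chosen with earlier results of these data known. Alternatives were DESeq2 1.42.0 size factors and Wald test, no filter, leaving out each sample, a replicate block or none, fits of 2 groups alone, length-corrected offsets (coding lengths for 98.8% of genes) and a fit of polysome log2 CPM with the cytosolic level as covariate in limma. The scripts' tests were checked on simulated counts with a fixed spread and no sample effects. There the TE test recovered 61% of 1.5-fold and 98% of 2-fold changes. The cytosolic and polysome tests recovered 94% and 96% of 1.5-fold changes, so small TE changes are the most easily missed.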

Additional observations from a re-analysis of the deposited data

Results flagged for a closer look

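In the 1 h group, replicate 3 had the lowest cytosolic Eif2ak1 level, 43.67 CPM against 45.5 to 45.76 in the other 3 libraries. Its gap took 0.878 of the range of the group, above Dixon's critical value for 4 samples. It was 1 of 72 groups of 4 values examined, and chance alone picks out about 1 in 20.

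For 2 genes, cytosolic and polysome RNA changed in opposite directions, each past the threshold, and the difference between the 2 kinds of RNA was itself tested as TE. Eif2ak2 rose by 0.33 in cytosolic RNA and fell by 0.55 in polysome RNA with the inhibitor against 16 h (log2 scale), a TE change of -0.86. Eif2ak4 fell by 0.24 in cytosolic and rose by 0.68 in polysome RNA at 16 h against control, a TE change of 0.87. With the inhibitor against 16 h Eif2ak4 rose by 0.34 in cytosolic and fell by 0.57 in polysome RNA, a TE change of -0.88. These 2 TE changes of Eif2ak4 were 0.0005 and -0.055 with offsets corrected for coding length.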

How the results depend on the processing

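Of 720 values for the 6 genes with 1 sample left out, 709 kept their direction and their side of the threshold, 4 fell below it and 7 came above it; these 11 are named with their values in the report. Without the filter on low counts all 90 did so, and with DESeq2 size factors or the DESeq2 Wald test 89 of 90. With offsets corrected for coding length, TE of Eif2ak4 at 1 h reversed to -0.29, and 22 of 30 values kept side and direction. With the cytosolic level as a covariate 21 of 30 did. TE of Eif2ak3 then turned sign, without being called, at 16 h (0.16 ± 0.26) and in the inhibitor group (0.21 ± 0.25) against control. Likewise Eif2ak4 (-0.085 ± 0.12) and Ppp1r15a (0.74 ± 0.73) turned sign at 16 h against 1 h and were not called. That covariate also moved the count of all genes called in TE for 16 h against 1 h from 3527 to 7346. The causes of these shifts were not tested. The labels tie samples of different conditions only by a shared number. Same-numbered libraries, taken as deviations from group means, correlated from -0.477 to 0.649 in cytosolic RNA (9 of 24 pairs over 0.1) and from -0.391 to 0.488 in polysome RNA (4 of 24), and for control and 16 h from 0.0275 to 0.649 and 0.0294 to 0.488, so in no comparison were all pairs over 0.1. With the replicate number as a block, or with no replicate block for TE, no call on the 6 genes changed, and cytosolic RNA at 1 h against control had 5 of 6 genes called with the block as without it. Depth was no limit on detecting these mRNAs, but changes of 0.071 to 0.24 on the log2 scale moved across the threshold when single samples were left out.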

Other observations

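In both the control and the 16 h group, samples 2 and 3 had higher log2 ratios of polysome to cytosolic RNA than samples 1 and 4 for 4 of the 6 genes. For Ppp1r15b the ratios were 0.47, 0.70, 0.83 and 0.53 in control samples 1 to 4 and 0.31, 0.72, 0.77 and 0.44 at 16 h. For Eif2ak1 they were 0.49, 0.60, 0.75 and 0.43 in control and 0.37, 0.66, 0.78 and 0.47 at 16 h. For Eif2ak3 they were 1.08, 1.10, 1.12 and 1.07 in control and 0.49, 0.58, 0.64 and 0.47 at 16 h. The ratios of Eif2ak2 are given in the report and fell the same way. Those of Atf4 did too, within narrow ranges: -1.94, -1.89, -1.92 and -1.95 in control and 0.52, 0.55, 0.54 and 0.54 at 16 h. Eif2ak4 and Ppp1r15a did not follow this order in both groups. This was noticed after the values were seen and was not tested.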
